A study of Mus musculus with 8 samples.

Results

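Embryonic CMs were compared with normal ACMs, the resting muscle cells of the grown ventricle, in genes of signalling, transcription, transport and protein turnover. The embryonic CMs came from fetal ventricles at stage E15.5 and filled 2 arrays, and the normal ACMs came from adult ventricles and filled 3. Both groups were from mice on a CD1 background, carried the label of controls and had no treatment. The sources used here give neither the age of the adult mice nor whether arrays of a group came from separate animals. P-values therefore describe the spread among these arrays alone, which may be technical, and so few arrays limit the precision. RNA was read on Illumina MouseRef-8 v2.0 BeadChips, on which the fluorescence of beads carrying a probe stands for the abundance of a transcript. Members were all genes with a probe whose detection p-value was under 0.05 on at least 2 of these 5 arrays. The detection p-value compares a probe's signal with that of the array's own negative-control beads. This rule left 9254 of the 16593 genes with a probe, measured on 5 of the 8 arrays of the series. The other 3 arrays held hypertrophic ACMs of CD1 mice 7 days after an operation and served only to normalize the arrays and to estimate the spread.

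Before birth, ventricular CMs still divide and the heart wall grows under growth factors, Notch, Wnt and BMP signals exchanged between muscle, epicardium and endocardium. After birth CMs leave the cell cycle, enlarge, turn from glucose to fatty acids as fuel and come under thyroid hormone and autonomic control. As adult CMs are rarely replaced, chaperones, ubiquitin ligases and autophagy maintain their contractile proteins for a long time.

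Of the 9254 genes, 2602 (28.1%) were higher and 2262 (24.4%) were lower in embryonic CMs than in normal ACMs with an adjusted p under 0.05 from limma, the call used throughout. The 2 groups of arrays did not overlap in 6342 genes (68.5%). Genes named below for the smallest p or the largest difference were picked among these, so their lack of overlap is no result. Differences are embryonic minus adult on the log2 scale, and their median over all genes was 0.03. By size, 1677 of the higher and 1372 of the lower genes differed by more than 1, and 46 and 23 by more than 5. Embryonic arrays detected more probes (51.63% and 51.61%) than normal ACM arrays (41.9% to 43.95%), and quantile normalization gives each array the same distribution. With each array scaled to its median instead, the median difference rose to 0.60 and the calls to 4578 higher and 1106 lower, so 80.5% of calls were higher against 53.5%. A list whose balance turned under that scaling is named as such below, with its median there relative to that of all genes. The filter let in 912 genes detected on no normal ACM array and 256 detected on no embryonic array, which could pass only by being high in the other group. Among the 6421 genes detected on all 5 arrays, 1667 were higher and 2009 lower. For a gene detected on no array of a group, the fold is a bound. Each dim array was then given its own signal for the probe or the lowest signal of any detected probe there, whichever was more, the mean of these was set below the mean of the bright arrays, and the ratio is written as at least N-fold.

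Defining CM markers such as Actc1, Myl2 and Tnnc1 were detected on all 5 arrays, and of 15 measured CM markers all but Ryr2, on embryonic replicate 1, were. By the test 7 were lower in embryonic CMs, and 8 did not pass. Their summed normalized intensity was 173700 and 193000 in embryonic CMs and 240700 to 255600 in normal ACMs. Markers of other cells moved with the groups. The summed intensity of 13 fibroblast markers was 10560 and 11400 in embryonic CMs against 1937 to 3627 in normal ACMs, and 10 of them were higher and 1 lower. Col1a2 was detected on no normal ACM array but did not pass the test, and Gsn was detected on no embryonic array. For 16 endothelial markers the sum was 13820 and 11120 against 3859 to 7839, with 10 higher and 2 lower. Kdr was detected on no normal ACM array but did not pass the test. Of 8 epicardial markers, 6 were higher (706 and 739 against 75.87 to 138), and 6 of 8 erythroid markers were (34530 and 34880 against 146.6 to 1315). Smooth muscle and pericyte markers were divided, with 4 of 11 higher, such as Mcam and Acta2, and 3 lower, and a sum of 35340 and 34920 against 17110 to 23410, and 2 were higher without hypertrophic ACM replicate 3, without embryonic replicate 2 or without normal ACM replicate 1. The epicardial Upk1b and Krt19 and the erythroid Alas2 and Slc4a1 were detected on no normal ACM array. Upk1b did not pass without normal ACM replicate 3, and its bound was 0.964-fold without embryonic replicate 2. Of 11 leukocyte markers, limma called 0 and 1 had an unadjusted p under 0.05, but their sum set normal ACM replicate 2 (3550) apart from replicates 1 and 3 (363.9 and 1025) and from embryonic CMs (1173 and 1429). Without normal ACM replicate 2, 5 leukocyte markers were higher and 1 lower, and without replicate 1, 2 were lower. The pan-leukocyte marker Ptprc failed the filter, and the monocyte gene Lyz2 was detected on all 5 arrays. In such bulk samples fewer cells of a type and less RNA per cell cannot be told apart, and the part of these other cells in the results below was not tested.

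**Figure D1:**
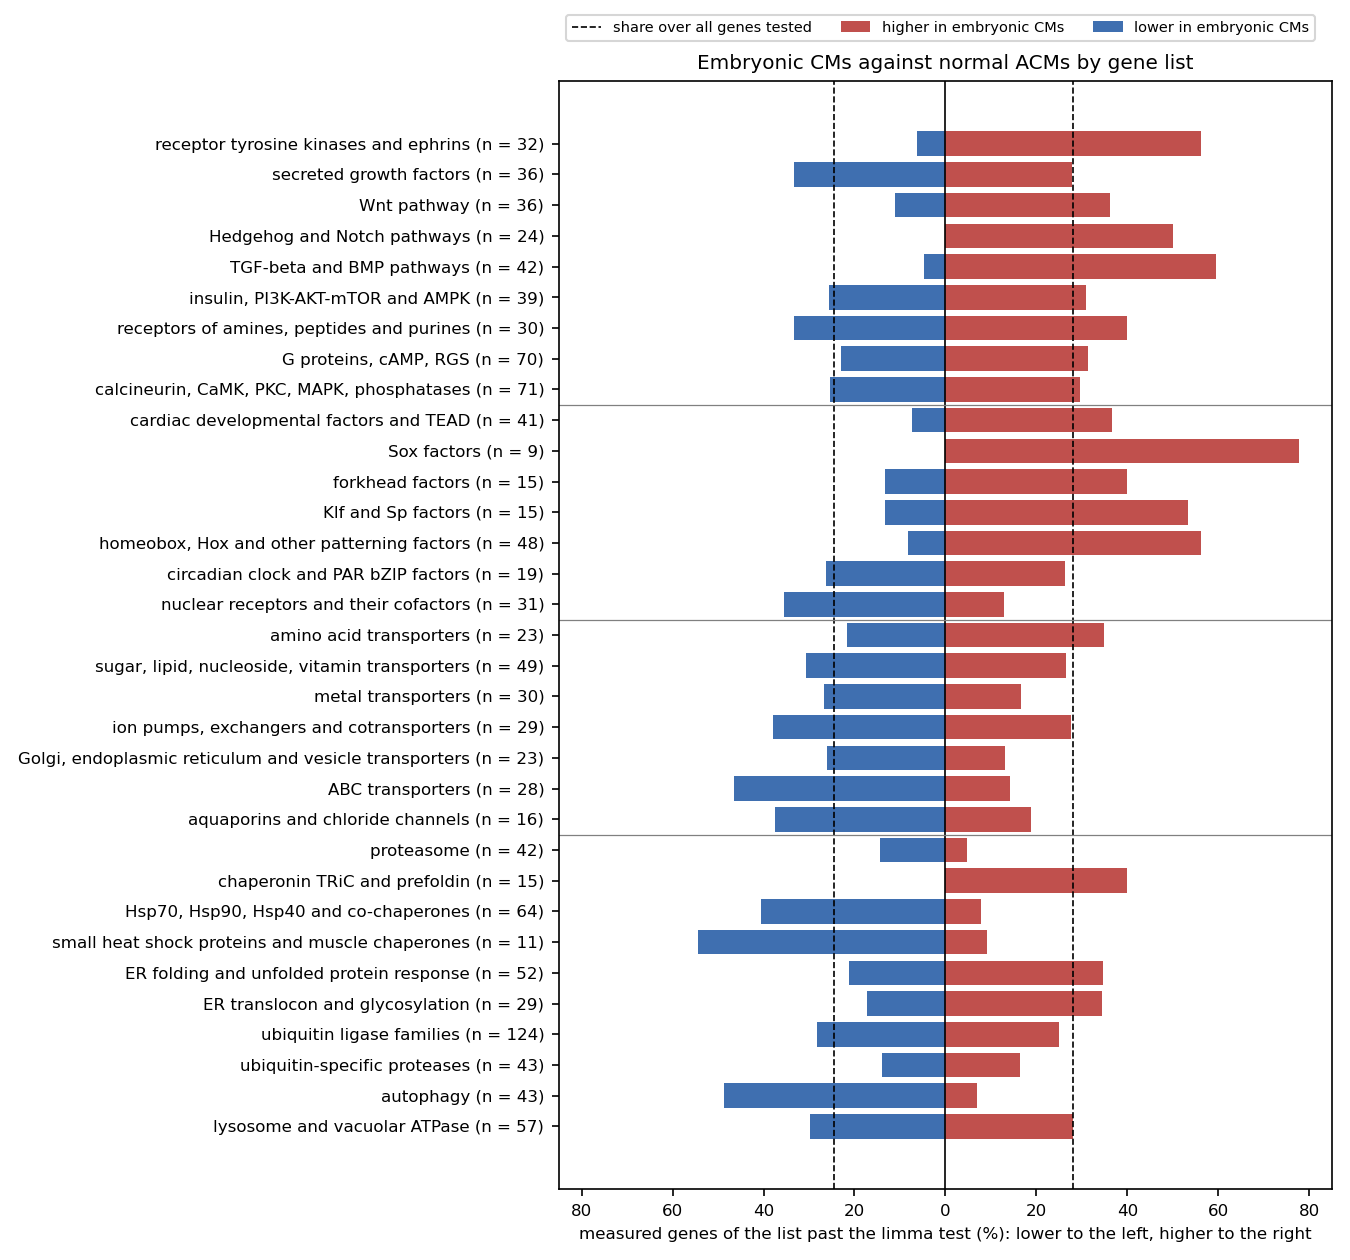
Share of the measured genes of each list that were higher (right) or lower (left) in embryonic CMs than in normal ACMs, in percent, with n the measured genes and dashed lines at the shares over all 9254 genes (28.1% and 24.4%). Sox, TGF-beta and BMP, receptor tyrosine kinase and patterning genes reach furthest to the right, and small heat shock proteins, autophagy and ABC transporters furthest to the left in quantile-normalized values, of which autophagy turned under median scaling. In the first 4 lists 5 of 9, 9 of 42, 10 of 32 and 12 of 48 genes, against 912 of all 9254, were detected on no normal ACM array. Such genes could pass the filter only by being high in embryonic CMs, which raises the shares to the right.

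Cell cycle, sarcomere and cytoskeleton, oxidative metabolism, globin and ribosomal protein genes are not described here. The largest differences outside them were spread over secreted factors, small nuclear proteins, enzymes and membrane proteins. Ptn, a heparin-binding growth factor, had log2 intensities of 11.61 and 11.66 in embryonic CMs and 4.54, 4.73 and 4.53 in normal ACMs. No normal ACM array detected it, and the embryonic level was at least 107-fold higher (adjusted p = 6.04e-07 from limma). Igf2, the fetal insulin-like growth factor, stood at 14.71 and 14.90 in embryonic CMs and 8.15, 8.10 and 9.18 in normal ACMs, a difference of 6.33 (SE 0.51, adjusted p = 1.40e-05 from limma). On both arrays the embryonic level was far above each adult one, and Igf2 was detected on all 5 arrays. Groups that do not overlap were required of every gene ranked here. Col18a1, the basement membrane collagen that gives rise to endostatin, differed by 6.28 (SE 0.28). The small X-linked genes Bex3, Bex4 and Tceal5 differed by 6.27 (SE 0.21), 6.21 (SE 0.28) and 5.68 (SE 0.25), and Tceal5 was detected on 2 of the 3 normal ACM arrays. In the other direction, the carboxylesterase Ces1d had 4.33 and 4.57 in embryonic CMs and 12, 12.28 and 12.26 in normal ACMs and was detected on no embryonic array, which made it at least 195-fold lower in embryonic CMs (adjusted p = 2.00e-07 from limma). Itga7, the laminin-binding integrin of muscle, had 5.50 and 5 in embryonic CMs and 10.29, 10.55 and 10.46 in normal ACMs, a difference of -5.19 (SE 0.20, adjusted p = 3.38e-07 from limma). Here the adult arrays lay close together and far above both embryonic arrays. Scn4b, a beta subunit of the sodium channel, differed by -5.30 (SE 0.36), Fndc5, the precursor of irisin, by -5.26 (SE 0.17), the stretch-responsive ankyrin repeat gene Ankrd23 by -5.90 (SE 0.21) and the microtubule-associated protein tau, Mapt, by -5.97 (SE 0.22). Scn4b and Mapt were detected on 1 of the 2 embryonic arrays.

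Among kinase receptors and their ligands, the receptors that passed were mostly higher in embryonic CMs and the ligands were divided. Of 32 measured receptor tyrosine kinases and ephrins, 18 were higher, 2 lower and 12 did not pass, with a median of 0.73, and of those detected on all 5 arrays 9 of 14 were higher and 2 lower. Ror2, a receptor of Wnt5a, had 8.46 and 8.08 in embryonic CMs and 4.22, 4.17 and 4.18 in normal ACMs and was at least 10.4-fold higher (adjusted p = 8.18e-07 from limma). The embryonic level of Epha3, an ephrin receptor of endocardial cushions, was at least 5.80-fold higher. Neither gene was detected on a normal ACM array, so each could pass the filter only by detection on both embryonic arrays. Igf1r, the receptor of the insulin-like growth factors, had 6.58 and 7.31 in embryonic CMs and 5.42, 5.65 and 5.21 in normal ACMs, a difference of 1.52 (SE 0.26, adjusted p = 0.00119 from limma). The angiopoietin receptor Tek and Pdgfra, which are themselves markers of endothelial cells and fibroblasts, differed by 2.41 (SE 0.34) and 2.64 (SE 0.51) beside the marker sums above. The lower receptors were Ephb1, at -2.76 (SE 0.24), and the kinase Lmtk2, at -1.02 (SE 0.16). Of 36 secreted growth factors, 10 were higher and 12 lower, near the shares of all genes, and median scaling turned this to 14 higher and 8 lower, with a list median of -0.22 relative to all genes. Fgf1, the acidic fibroblast growth factor, was the most reduced, with 6.70 and 7.00 in embryonic CMs and 11.12, 11.08 and 11.08 in normal ACMs and a difference of -4.24 (SE 0.16, adjusted p = 2.73e-07 from limma). Its 3 adult values almost coincided. Fgf16, a fibroblast growth factor of heart muscle, was at least 4.62-fold lower, and the angiogenic Vegfa and Vegfb differed by -1.27 (SE 0.22) and -0.80 (SE 0.17). The lymphangiogenic Vegfc differed by 3.15 (SE 0.39) and Gdnf, a ligand of the Ret receptor, was at least 4.51-fold higher. Without embryonic replicate 2, 7 rather than 12 growth factors were lower.

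Notch, TGF-beta and BMP genes that passed were nearly all higher in embryonic CMs. Of 24 measured Hedgehog and Notch genes, 12 were higher and 12 did not pass. Their median was 0.94, and of the 14 detected on all 5 arrays 9 were higher. Hey2, a Notch target that patterns the compact ventricular wall, had 9.28 and 9.39 in embryonic CMs and 5.04, 5.44 and 4.94 in normal ACMs, a difference of 4.20 (SE 0.21, adjusted p = 9.87e-07 from limma). Hey1, its relative, differed by 2.50 (SE 0.42) and Nrarp, a feedback inhibitor of Notch, by 2.10 (SE 0.46), while the receptors Notch1 and Notch4 differed by 1.71 (SE 0.41) and 1.76 (SE 0.33). Notch1 was detected on 2 of the normal ACM arrays. The 12 genes that did not pass included the Notch ligand Jag2, the modifier Rfng and the target Hes1, at -0.13 (SE 0.27), -0.54 (SE 0.22) and 0.11 (SE 0.24). The TGF-beta and BMP ligands act through paired kinase receptors and SMAD proteins. Of 42 genes of these pathways, 25 were higher, 2 lower and 15 did not pass, with a median of 0.81, and of those detected on all 5 arrays 17 of 29 were higher and 2 lower. Fstl1, a secreted follistatin-like protein, had 11.30 and 10.86 in embryonic CMs and 6.14, 6.55 and 5.91 in normal ACMs, a difference of 4.88 (SE 0.25, adjusted p = 1.21e-06 from limma). Both embryonic arrays exceeded the highest adult array, a condition on which Fstl1 was picked, and the margin was wide. Bmp7, a BMP ligand, was at least 16.2-fold higher and Bmp4, another, differed by 2.55 (SE 0.22). The inhibitors of basic helix-loop-helix factors Id2 and Id3, which BMP induces, differed by 1.70 (SE 0.31) and 1.69 (SE 0.29). The receptors Tgfbr1 and Acvr2b differed by 1.71 (SE 0.23) and 1.87 (SE 0.22). The lower genes were the inhibin subunit Inha, at -1.02 (SE 0.16), and Tgfb1, at -0.77 (SE 0.17), which turned under median scaling. Of 36 Wnt genes, 13 were higher and 4 lower, but among those detected on all 5 arrays 3 of 18 were higher and 4 lower. The secreted Wnt antagonists Sfrp1 and Dkk3 differed by 4.08 (SE 0.50) and 3.25 (SE 0.56), with detection on 1 and 2 of the normal ACM arrays, and the planar polarity gene Vangl2 by 2.88 (SE 0.19), with detection on 1. The 4 lower genes were the co-receptor Lrp5, at -1.22 (SE 0.19), Kremen1, a receptor of Dickkopf proteins, at -1.46 (SE 0.22), the receptor Fzd10, at -1.05 (SE 0.34), and the adaptor Dvl1, at -0.68 (SE 0.17), which turned under median scaling. Fzd10 did not pass without any 1 of embryonic replicates 1 and 2 and normal ACM replicates 1 and 3 (adjusted p of up to 0.129 from limma).

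Genes of the insulin pathway changed in both directions, 12 of 39 higher and 10 lower, which is close to the shares of all genes. Grb10 and Grb14, adaptors that both inhibit the insulin receptor, differed in opposite directions. Grb10 had 13.30 and 13.39 in embryonic CMs and 10.17, 10.44 and 10.25 in normal ACMs, a difference of 3.06 (SE 0.17, adjusted p = 1.61e-06 from limma), whereas Grb14 had 7.42 and 6.33 in embryonic CMs and 10.10, 9.14 and 9.66 in normal ACMs, a difference of -2.76 (SE 0.37, adjusted p = 0.000256 from limma). Igf2r, which clears Igf2, differed by 2.49 (SE 0.29) and the PI3K subunits Pik3r3 and Pik3r1 by 1.92 (SE 0.19) and -1.56 (SE 0.28). Among listed genes whose products restrain mTOR, Sesn1, Ddit4 and Deptor were lower, at -2.32 (SE 0.31), -2.14 (SE 0.29) and -1.42 (SE 0.23), Deptor with detection on 1 embryonic array. Sesn2, Ddit4l, Tsc1, Tsc2 and Akt1s1 did not pass, at 0.09 (SE 0.40), -0.28 (SE 0.36), -0.15 (SE 0.25), -0.55 (SE 0.24) and -0.13 (SE 0.16), and Akt1s1 was higher after median scaling, at 0.64. Of the AMPK subunits, Prkag1 and Prkab1 were lower, at -1.06 (SE 0.15) and -0.89 (SE 0.18), and Prkag2 was higher, at 2.03 (SE 0.41), with detection on 1 normal ACM array. The subunit gene Prkaa2 was lower too, at -0.63 (SE 0.16), and is not among the named genes followed through other settings below.

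Receptors of neurotransmitters, hormones and nucleotides differed in both directions. Of 30 measured, 12 were higher and 10 lower, and among those detected on all 5 arrays 4 of 13 were higher and 7 lower. The muscarinic receptor Chrm2, through which the vagus nerve slows the heart, had 6.43 and 7.12 in embryonic CMs and 9.52, 9.18 and 9.93 in normal ACMs, a difference of -2.77 (SE 0.28, adjusted p = 5.37e-05 from limma). The ADP receptor P2ry1 had 6.23 and 6.83 in embryonic CMs and 9.46, 9.78 and 9.76 in normal ACMs, a difference of -3.14 (SE 0.25, adjusted p = 1.49e-05 from limma). In Chrm2 as in P2ry1 every adult array exceeded both embryonic arrays, a condition on which both were picked. The orphan receptor Gpr22, the growth hormone receptor Ghr and the angiotensin receptor Agtr1a differed by -2.30 (SE 0.34), -2.18 (SE 0.26) and -1.69 (SE 0.27). Receptors of lysophosphatidic acid went the other way, with Lpar3 at 3.86 (SE 0.34), Lpar6 at 2.33 (SE 0.21) and Lpar4 at least 11-fold higher, as did the endothelin receptor Ednrb, at 3.67 (SE 0.45), and the thrombin receptor F2r, at 2.24 (SE 0.26). Lpar3 was detected on 2 normal ACM arrays. Ramp1 was detected on 2 normal ACM arrays as well. Ramp1 and Ramp2, which turn the calcitonin receptor-like receptor into receptors of CGRP and adrenomedullin, differed by 3.26 (SE 0.55) and 2.67 (SE 0.24), while Ramp3 did not pass, at 0.13 (SE 0.31). Downstream, 22 of 70 genes of G proteins, cyclic AMP and RGS proteins were higher and 16 lower, near the shares of all genes, and median scaling gave 41 higher and 10 lower. Among those detected on all 5 arrays 13 of 48 were higher and 14 lower. Ppp1r1a, an inhibitor of protein phosphatase 1, had 10.18 and 10.50 in embryonic CMs and 6.17, 6.21 and 4.51 in normal ACMs, a difference of 4.71 (SE 0.47, adjusted p = 5.01e-05 from limma). It was detected on 2 of the normal ACM arrays. Its relative Ppp1r1b, also called DARPP-32, was at least 20.2-fold higher. The protein kinase A inhibitors Pkig and Pkia differed by -3.63 (SE 0.28) and -1.55 (SE 0.23), the adenylyl cyclases Adcy9 and Adcy4 by -1.90 (SE 0.24) and 2.27 (SE 0.39), and the G protein beta subunits Gnb1 and Gnb3 by 2.68 (SE 0.23) and -1.79 (SE 0.39).

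Of 71 genes of calcineurin, CaM kinases, PKC and MAP kinases, 21 were higher and 18 lower, which is close to the background of all genes, and median scaling gave 36 higher and 6 lower. Among those detected on all 5 arrays 12 of 51 were higher and 16 lower. Rcan2, an inhibitor of calcineurin, differed by -2.55 (SE 0.22) and the calcineurin catalytic subunit Ppp3cc by -2.26 (SE 0.24), while the transcription factor Nfatc4, which calcineurin activates, had 7.62 and 7.76 in embryonic CMs and 5.55, 5.25 and 5.39 in normal ACMs, a difference of 2.30 (SE 0.17, adjusted p = 9.58e-06 from limma). Dusp6, a phosphatase that ERK signalling induces, differed by 3.11 (SE 0.28), and Dusp2 was at least 7.22-fold higher. The phosphatases Dusp18 and Dusp7 were lower, at -2.04 (SE 0.37) and -1.44 (SE 0.20). Of the protein kinase D genes, which phosphorylate class II histone deacetylases, Prkd3 differed by 2.12 (SE 0.23) and Prkd2 by 1.56 (SE 0.43), and Prkd1 was at least 1.36-fold higher. Prkd1 and Prkd2 did not pass without embryonic replicate 1 (adjusted p = 0.057 and 0.0938 from limma). The CaM kinase Camk2b was lower, at -1.91 (SE 0.21).

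**Figure D2:**
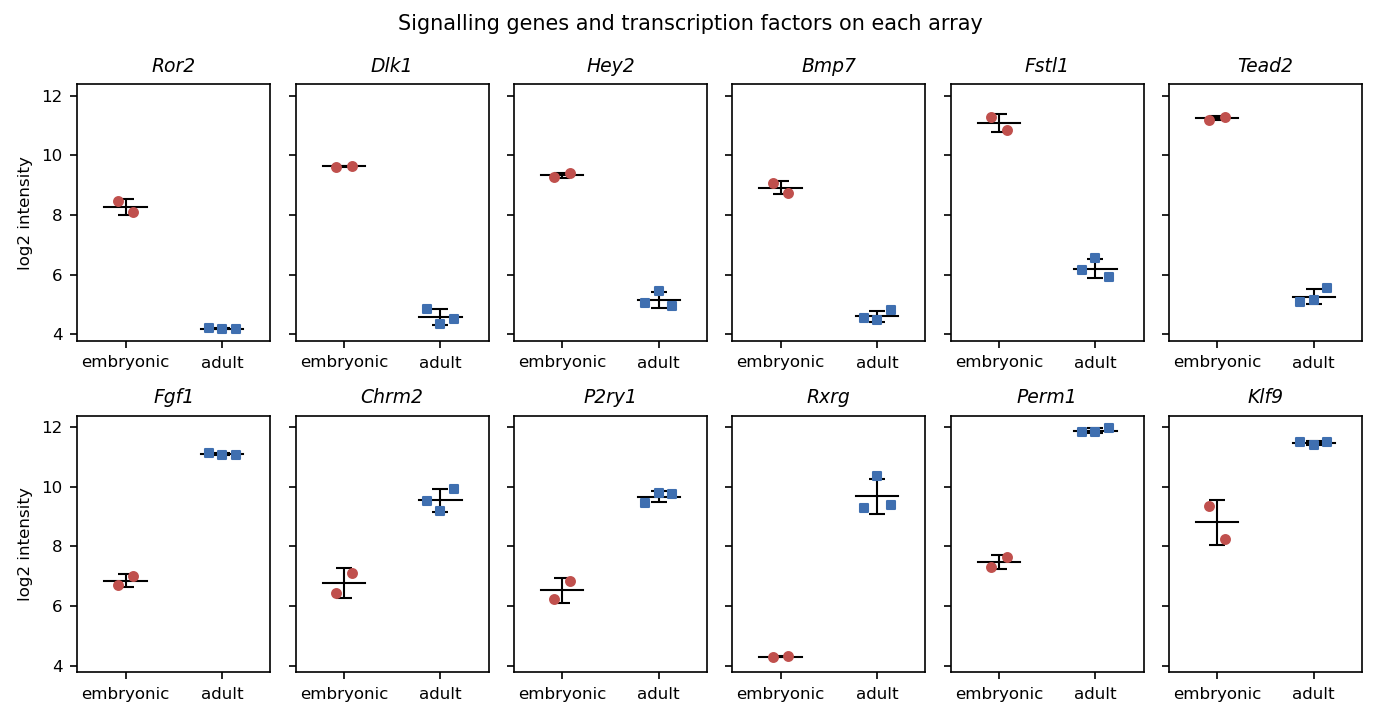
Normalized log2 intensity of 12 genes on the 2 embryonic arrays (circles) and the 3 normal ACM arrays (squares), with the mean and SD of each group. The first 6 genes lay higher and the last 6 lower on both embryonic arrays than on every normal ACM array, a condition on which they were picked. Ror2, Dlk1 and Bmp7 were detected on no normal ACM array and Rxrg on no embryonic array.

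Several core cardiac transcription factors did not pass the test, and the factors that passed were mostly higher in embryonic CMs. Of 41 cardiac developmental factors, 15 were higher, 3 lower and 23 did not pass. Among those that did not pass were Gata4, at -0.30 (SE 0.22), Nkx2-5, at 0.65 (SE 0.25), Tbx5, at -0.47 (SE 0.32), Mef2c, at 0.46 (SE 0.18), and the coactivator Myocd, at 0.00 (SE 0.28). Tead2, a DNA-binding partner of YAP that is used in embryos, had 11.19 and 11.30 in embryonic CMs and 5.10, 5.14 and 5.54 in normal ACMs, a difference of 5.99 (SE 0.21, adjusted p = 2.12e-07 from limma). Its relatives Tead3 and Tead4 did not pass, at 0.11 (SE 0.29) and -0.25 (SE 0.16), while Yap1 itself differed by 1.16 (SE 0.22) and the cofactor Vgll4 by 1.6 (SE 0.31). Isl1, a factor of cardiac progenitors, had 6.15 and 5.89 in embryonic CMs and 4.32, 4.15 and 4.33 in normal ACMs and was at least 2.18-fold higher, from detection on no normal ACM array. Gata6 differed by 1.11 (SE 0.18) and serum response factor, Srf, by 0.87 (SE 0.18). The 3 lower genes were the muscle methyltransferase gene Smyd1, at -1.40 (SE 0.36), Ankrd1, at -0.57 (SE 0.18), and Vgll2, at least 1.83-fold lower. Their number was 0 without embryonic replicate 1, 1 without embryonic replicate 2 and 5 without normal ACM replicate 2. Ankrd1, Smyd1 and Vgll2 each did not pass without at least 1 of the arrays (adjusted p of up to 0.0918, 0.068 and 0.0899 from limma).

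Of 48 homeobox and other patterning factors, 27 were higher and 4 lower, with a median of 0.79, and among those detected on all 5 arrays 10 of 23 were higher and 4 lower. Twist1, a mesenchymal factor, was at least 2.90-fold and the imprinted zinc finger gene Peg3 at least 5.57-fold higher. Bcl11a, known for repressing fetal globin, had 7.49 and 7.41 in embryonic CMs and 4.98, 5.18 and 4.96 in normal ACMs, a difference of 2.41 (SE 0.19, adjusted p = 1.30e-05 from limma), and the adaptor Ldb1 differed by 1.98 (SE 0.16). The epicardial factors Wt1 and Tcf21 differed by 3.08 (SE 0.50) and 2.40 (SE 0.35) beside the epicardial sums above. The 4 lower genes were Prrx1, at -2.51 (SE 0.23), Hoxa13, at -1.22 (SE 0.19), and the nuclear factor I genes Nfix, at -2.31 (SE 0.16), and Nfic, at -1.44 (SE 0.15). Nfix had 9.78 and 9.75 in embryonic CMs and 11.97, 12.22 and 12.03 in normal ACMs, and its relative Nfib did not pass, at 0.38 (SE 0.19). Sox genes encode relatives of the testis-determining factor that act in many embryonic tissues. Of 9 measured, 7 were higher and 2 did not pass, with 4 higher without embryonic replicate 1, and 2 genes were detected on all 5 arrays. Sox7, an endothelial factor, differed by 2.43 (SE 0.30) and the endothelial marker Sox17 by 1.49 (SE 0.29), with detection on 2 normal ACM arrays. Of 15 Klf and Sp factors, 8 were higher and 2 lower, which became 5 and 1 without embryonic replicate 1 and 1 lower without embryonic replicate 2 or normal ACM replicate 3. Klf6 had 12.15 and 12.21 in embryonic CMs and 9.53, 10.11 and 10.16 in normal ACMs, a difference of 2.25 (SE 0.21, adjusted p = 3.85e-05 from limma). Klf2, Klf4 and Klf6 are also immediate early genes, a class that tissue dissociation and stress induce and in which 10 of 18 were higher, such as Fosb, at 3.49 (SE 0.54), or 4 higher and 1 lower without embryonic replicate 1. Klf2 did not pass without embryonic replicate 1 (adjusted p = 0.109 from limma). Klf4 did not pass without any 1 of embryonic replicates 1 and 2 and hypertrophic ACM replicate 3 (adjusted p of up to 0.184 from limma). Klf9, which glucocorticoids and thyroid hormone induce, was lower, with 9.35 and 8.26 in embryonic CMs and 11.51, 11.39 and 11.49 in normal ACMs, a difference of -2.66 (SE 0.29, adjusted p = 9.04e-05 from limma). The other lower gene was Sp8, at -0.66 (SE 0.22), detected on 1 embryonic array. Sp8 did not pass without any 1 of embryonic replicates 1 and 2 and normal ACM replicates 1 and 3 (adjusted p of up to 0.234 from limma). Of 15 forkhead factors, 6 were higher and 2 lower, with Foxc1 at 2.48 (SE 0.43) and Foxp1 at 1.76 (SE 0.20) among the higher, Foxc1 with detection on 2 normal ACM arrays. The lower ones were Foxj2, at -1.29 (SE 0.24), and Foxp3, at least 1.31-fold lower, and without either embryonic array Foxp3 did not pass.

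Nuclear receptors, which are switched by hormones, retinoids and lipids, were more often lower than higher in quantile-normalized values but not after median scaling. Of 31 measured nuclear receptors and cofactors, 11 were lower, 4 higher and 16 did not pass, with a median of -0.31. Scaling each array to its median turned this to 9 higher and 7 lower, where the list median was -0.46 relative to that of all genes. In quantile-normalized values, of the 20 detected on all 5 arrays, 1 was higher and 9 lower. Rxrg, the retinoid X receptor of striated muscle, had 4.29 and 4.32 in embryonic CMs and 9.30, 10.37 and 9.40 in normal ACMs and was at least 34.8-fold lower (adjusted p = 2.07e-06 from limma). Its relative Rxra did not pass, at -0.20 (SE 0.37), nor did Rxrb, at -0.31 (SE 0.16). Perm1, a muscle regulator of mitochondrial genes that works with PGC-1 and the estrogen-related receptors, had 7.31 and 7.64 in embryonic CMs and 11.85, 11.84 and 11.99 in normal ACMs, a difference of -4.42 (SE 0.18, adjusted p = 4.48e-07 from limma). In both genes every adult array lay far above both embryonic arrays, and both were picked among genes whose groups do not overlap. The estrogen-related receptors Esrrb and Esrra differed by -1.95 (SE 0.22) and -1.50 (SE 0.17), the fatty acid receptors Ppara and Pparg by -2.12 (SE 0.20) and -1.22 (SE 0.24), whereas their coactivator Ppargc1a, or PGC-1 alpha, did not pass, at -0.04 (SE 0.24). Nr1h3, the oxysterol receptor LXR alpha, was at least 8.4-fold lower. The 4 higher genes were the atrial and venous factors Nr2f1 and Nr2f2, at 1.63 (SE 0.39) and 0.88 (SE 0.28), the immediate early gene Nr4a2, at 0.90 (SE 0.34), and the coactivator Ncoa2, at least 1.28-fold higher, and 2 were higher without embryonic replicate 1, embryonic replicate 2 or normal ACM replicate 1. Nr2f1 did not pass without embryonic replicate 1 (adjusted p = 0.0578 from limma). Nr2f2 did not pass without any 1 of embryonic replicates 1 and 2 and normal ACM replicate 1 (adjusted p of up to 0.126 from limma). Nr4a2 did not pass without any 1 of embryonic replicates 1 and 2, normal ACM replicates 1 and 3 and hypertrophic ACM replicates 1 and 2 (adjusted p of up to 0.2 from limma).

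The circadian clock, a feedback loop of transcription in nearly every cell, also sets daily rhythms of the heart. After median scaling 1 of 19 clock genes was lower and 6 were higher, with a list median of -0.47 relative to all genes. In quantile-normalized values 5 were lower and 5 higher (26.3% each), near the shares of all genes (24.4% and 28.1%). The lower ones were Nr1d1, or REV-ERB alpha, its relative Nr1d2, the receptor Rora and the activators Clock and Arntl, at -2.24 (SE 0.23), -1.13 (SE 0.34), -1.30 (SE 0.21), -1.09 (SE 0.24) and -1.27 (SE 0.31). Another probe of Clock was called the other way, which leaves its direction unsettled. Arntl did not pass without embryonic replicate 2 (adjusted p = 0.0841 from limma). Nr1d2 did not pass without any 1 of embryonic replicates 1 and 2 (adjusted p of up to 0.113 from limma). The higher ones were the kinases Csnk1d and Csnk1e, the repressor Nfil3, Per1 and Timeless, at 1.58 (SE 0.18), 1.53 (SE 0.16), 1.58 (SE 0.27), 1.23 (SE 0.26) and 1.79 (SE 0.38). Without normal ACM replicate 3, 8 were lower, and without embryonic replicate 2, 3 were. Levels of Dbp, a rhythmic output gene, and Per2, a core repressor, varied among the adult arrays, Dbp with 8.21 and 8.19 in embryonic CMs and 11.47, 8.50 and 9.35 in normal ACMs and Per2 with 8.01 and 7.83 in embryonic CMs and 7.63, 6.30 and 5.6 in normal ACMs, and neither passed (adjusted p = 0.0978 and 0.112 from limma). Normal ACM replicate 1 was the highest adult array in both.

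Transporters differed in both directions, glucose transporters among them. Slc2a1, or GLUT1, the basal transporter, had 10.95 and 10.81 in embryonic CMs and 8.76, 8.90 and 8.29 in normal ACMs, a difference of 2.23 (SE 0.21, adjusted p = 3.42e-05 from limma). Slc2a4, or GLUT4, which insulin brings to the surface, had 6.24 and 6.38 in embryonic CMs and 10.62, 10.67 and 10.65 in normal ACMs, a difference of -4.33 (SE 0.17, adjusted p = 3.59e-07 from limma). The groups lay in opposite order in the 2 genes, which were picked among genes whose groups do not overlap. Slc2a3, or GLUT3, was at least 8.89-fold higher, and the intracellular Slc2a8 differed by -1.20 (SE 0.17). Of 49 carriers of sugars, lipids, nucleosides and vitamins, 13 were higher and 15 lower (26.5% and 30.6%), near the shares of all genes (28.1% and 24.4%). But among those detected on all 5 arrays 2 of 24 were higher and 13 lower. Median scaling turned the balance to 20 higher and 9 lower, with a list median of -0.35 relative to all genes. Without embryonic replicate 1 or 2, 8 or 7 were higher. The carnitine transporter Slc22a5 (OCTN2) and its relative Slc22a4 were lower, at -1.57 (SE 0.16) and at least 1.93-fold, as were the creatine transporter Slc6a8, at -1.01 (SE 0.19), the organic anion carrier Slco3a1, at -2.94 (SE 0.21), and Slc46a3, at -3.28 (SE 0.33). The taurine transporter Slc6a6 was higher, at 1.04 (SE 0.18).

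Of 23 amino acid carriers, 8 were higher and 5 lower, and without embryonic replicate 2 these were 4 and 3, and without embryonic replicate 1 they were 6 and 2. With all arrays the shares were 34.8% higher and 21.7% lower, not far from those of all genes (28.1% and 24.4%). Among those detected on all 5 arrays 2 of 11 were higher and 3 lower. Slc38a5 and Slc38a3 carry glutamine by the same system N. Slc38a5 had 8.82 and 8.73 in embryonic CMs and 4.28, 4.17 and 4.47 in normal ACMs and was at least 14.8-fold higher, whereas Slc38a3 had 4.26 and 4.32 in embryonic CMs and 7.64, 7.87 and 7.88 in normal ACMs and was at least 9.38-fold lower. Each was detected only in the group where it was high, through which alone it could pass the filter. The other 4 lower genes were Slc16a10 at -1.21 (SE 0.18), Slc1a2 at least 2.13-fold lower, Slc1a7 at -0.99 (SE 0.22) and Slc38a7 at -0.63 (SE 0.23), of which Slc38a7 turned under median scaling. Slc1a2, Slc1a7 and Slc38a7 each did not pass without at least 1 of the arrays (adjusted p of up to 0.0943, 0.0561 and 0.203 from limma). Slc7a5, the large neutral amino acid carrier LAT1, differed by 2.41 (SE 0.24) and the glutamate carrier Slc1a3 by 2.50 (SE 0.38), with detection on 2 normal ACM arrays. Among 30 metal transporters 5 were higher and 8 lower, which became 3 and 4 without embryonic replicate 2 and 4 and 4 without embryonic replicate 1, and 5 were lower without normal ACM replicate 3. Median scaling turned the balance to 11 higher and 5 lower, with a list median of -0.21 relative to all genes, and cyclic loess to 8 higher and 7 lower. The magnesium transporter Slc41a3, at -3.64 (SE 0.32), and the iron importer Slc11a2, at -2.35 (SE 0.22), were lower, and the copper-dependent ferroxidase Heph was at least 9.58-fold higher. The other 4 higher genes were the iron exporter gene Slc40a1 and the zinc transporter genes Slc30a5, Slc39a11 and Slc39a6, at 1.37 (SE 0.40), 0.46 (SE 0.16), 1.68 (SE 0.23) and 2.00 (SE 0.23). Slc40a1 and Slc30a5 each did not pass without at least 1 of the arrays (adjusted p of up to 0.184 and 0.166 from limma). Of 29 ion pumps and exchangers, 8 were higher and 11 lower, or 7 and 7 without either embryonic array and 9 higher and 5 lower after median scaling, where the list median was -0.46 relative to all genes. The anion exchanger of heart muscle Slc4a3 had 9.08 and 9.36 in embryonic CMs and 11.55, 12.14 and 11.62 in normal ACMs, a difference of -2.55 (SE 0.22, adjusted p = 1.98e-05 from limma). The chloride and bicarbonate exchanger Slc26a6 differed by -2.46 (SE 0.24). Slc4a1, the band 3 protein of red cells, was at least 6.23-fold higher beside the erythroid sums above, of which it is a part. Phospholemman, Fxyd1, which restrains the sodium pump, differed by -1.72 (SE 0.21), and Fxyd5 of the same family by 1.58 (SE 0.37).

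ABC transporters had a larger share of lower genes (46.4%) than all genes together (24.4%) in quantile-normalized values. Of 28 measured, 13 were lower, 4 higher and 11 did not pass, with a median of -0.65, and among those detected on all 5 arrays 1 of 17 was higher and 10 were lower. Median scaling gave 6 higher and 8 lower, and 2 were higher without embryonic replicate 2. The 4 higher ones were Abca3 at 0.70 (SE 0.24), Abca9 at least 1.56-fold higher, Abcg1 at least 1.29-fold higher and Abcg4 at least 1.43-fold higher. Another kept probe of Abca9 gave -0.13 (SE 0.20) and did not pass. Abca3 and Abcg4 each did not pass without at least 1 of the arrays (adjusted p of up to 0.223 and 0.0853 from limma). Abcb4, a phosphatidylcholine floppase, had 4.58 and 4.57 in embryonic CMs and 8.72, 8.69 and 8.14 in normal ACMs, a difference of -3.95 (SE 0.22, adjusted p = 2.02e-06 from limma), with detection on 1 embryonic array. Abcc8 and Abcc9, the sulfonylurea receptors of the ATP-sensitive potassium channel, differed by -2.07 (SE 0.30) and -1.98 (SE 0.20). Abcd3 of the peroxisome, the sterol-regulated Abca2 and Abcb6, which transports porphyrins, differed by -2.24 (SE 0.23), -2.12 (SE 0.20) and -2.11 (SE 0.17). Among 16 aquaporins and chloride channels, 3 were higher and 6 lower, or 2 and 3 without either embryonic array and 4 higher and 3 lower after median scaling, where the list median was -0.54 relative to all genes. Ano10, of the anoctamin family, had 5.89 and 6.49 in embryonic CMs and 9.76, 10.57 and 10.31 in normal ACMs, a difference of -4.02 (SE 0.28, adjusted p = 6.54e-06 from limma), and Clic5 and Clic1, related intracellular channel proteins, differed by -1.95 (SE 0.19) and 2.49 (SE 0.31), Clic1 with detection on 2 normal ACM arrays. The other 2 higher genes were Clic6 at least 1.88-fold higher and Clns1a at 0.57 (SE 0.16). Clns1a did not pass without at least 1 of the arrays (adjusted p of up to 0.063 from limma). Of 23 transporters of the Golgi and endoplasmic reticulum (ER), 3 were higher and 6 lower, which median scaling turned to 12 higher and 1 lower, with a list median of 0.03 relative to all genes. The 3 higher genes were Slc35b3 at 1.74 (SE 0.20), Slc35b4 at 0.86 (SE 0.24) and Slc37a3 at least 1.04-fold higher. The bound of Slc37a3 fell to 0.945-fold without embryonic replicate 2. Slc35b4 and Slc37a3 each did not pass without at least 1 of the arrays (adjusted p of up to 0.123 and 0.253 from limma).

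The proteasome, which degrades ubiquitinated proteins, had 2 of 42 measured genes higher, 6 lower and 34 not past the test, which cyclic loess turned to 6 higher and 3 lower and median scaling to 8 higher and 1 lower, with a list median of -0.34 relative to all genes. Without embryonic replicate 2, 1 was higher and 3 lower. The 2 higher genes were Psma5 and Psmd10, at 0.62 (SE 0.22) and 0.66 (SE 0.20). Psma5 did not pass without any 1 of embryonic replicates 1 and 2, normal ACM replicates 1 and 3 and hypertrophic ACM replicates 2 and 3 (adjusted p of up to 0.139 from limma). Psmd10 did not pass without any 1 of embryonic replicate 1 and normal ACM replicate 1 (adjusted p of up to 0.169 from limma). Psme4, the PA200 activator, differed by -1.93 (SE 0.31) and Psmd1, a scaffold of the regulatory particle, by -1.03 (SE 0.21). Subunits of the immunoproteasome, which interferon induces, were set apart by 1 array. Psmb9 had 4.66 and 4.51 in embryonic CMs and 5.23, 11.64 and 5.84 in normal ACMs and did not pass (adjusted p = 0.137 from limma). Psmb8 had 4.28 and 4.27 in embryonic CMs and 4.34, 8.80 and 5.09 in normal ACMs, Psmb10 9.22 and 9.61 in embryonic CMs and 9.85, 13.91 and 10.10 in normal ACMs, and Tap1, which loads peptides for antigen presentation, 4.60 and 4.39 in embryonic CMs and 4.26, 9.14 and 4.83 in normal ACMs. Normal ACM replicate 2, the array with the highest leukocyte sum, was the highest in all of these, and the part of leukocytes in this was not tested. Tap2, the partner of Tap1, had 4.49 and 4.30 in embryonic CMs and 6.88, 10.26 and 7.40 in normal ACMs and was at least 12.2-fold lower, or at least 5.96-fold without normal ACM replicate 2 and 19.2-fold without normal ACM replicate 1.

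Among chaperones, the cytosolic chaperonin TRiC folds actin and tubulin, and prefoldin hands them to it. Of their 15 measured genes 6 were higher and 9 did not pass, 3 were higher without either embryonic array, and 1 was lower without normal ACM replicate 1 or hypertrophic ACM replicate 3. Cct6a, a TRiC subunit, had 11.96 and 12.22 in embryonic CMs and 10.73, 11 and 11.02 in normal ACMs, a difference of 1.18 (SE 0.18, adjusted p = 0.000655 from limma), and Uri1 of the prefoldin family differed by 1.15 (SE 0.18). Hsp70, Hsp90, Hsp40 and their partners were more often lower, with 26 of 64 lower, 5 higher and a median of -0.52, but median scaling turned this to 21 higher and 12 lower, with a list median of -0.48 relative to all genes. The abundant Hspa8 and Hsp90aa1 did not pass, at 0.22 (SE 0.18) and 0.17 (SE 0.24), nor did the Hsp60 gene Hspd1, at 0.24 (SE 0.19). Itgb1bp2, or melusin, a muscle co-chaperone of Hsp90, had 7.52 and 7.57 in embryonic CMs and 10.48, 10.30 and 10.58 in normal ACMs, a difference of -2.91 (SE 0.17, adjusted p = 2.07e-06 from limma). The Hsp40 genes Dnajb2, Dnaja4 and Dnaja3 differed by -2.38 (SE 0.17), -1.92 (SE 0.18) and -1.42 (SE 0.16), and Cdc37l1, a relative of the kinase chaperone Cdc37, by -2.39 (SE 0.21). The 5 higher genes were Hspa2 at 1.45 (SE 0.29), Hspa12b at 1.04 (SE 0.32), Bag4 at 0.71 (SE 0.24), Unc45a at 0.59 (SE 0.21) and Sugt1 at least 1.11-fold higher. They were 1 without embryonic replicate 1 and 3 without embryonic replicate 2 or hypertrophic ACM replicate 1. Bag4, Hspa12b, Sugt1 and Unc45a each did not pass without at least 1 of the arrays (adjusted p of up to 0.194, 0.147, 0.122 and 0.31 from limma). Small heat shock proteins, which bind unfolded proteins, and other muscle chaperones were lower in 6 of 11 genes and higher in 1 (Fkbp1b, at least 1.25-fold, not past the test without embryonic replicate 1), with a median of -0.84. Hspb8 had 9.55 and 8.94 in embryonic CMs and 12.48, 12.15 and 12.39 in normal ACMs, a difference of -3.09 (SE 0.21, adjusted p = 5.6e-06 from limma), and its partner Bag3, with which it clears damaged filamin, had 12.04 and 11.74 in embryonic CMs and 13.59, 13.74 and 13.52 in normal ACMs, a difference of -1.73 (SE 0.16, adjusted p = 3.91e-05 from limma). Every adult array exceeded both embryonic arrays in each, a condition on which both were picked. Hspb6 and Cryab differed by -2.28 (SE 0.15) and -0.98 (SE 0.20), while Hspb1 did not pass, at -0.36 (SE 0.26). Synpo2, a Z-disc protein that binds Bag3, was lower too, at -1.77 (SE 0.32).

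In the ER, where secreted and membrane proteins fold, 18 of 52 measured genes of folding and of the response to misfolding were higher and 11 lower. Their shares were 34.6% and 21.2%, not far from those of all genes (28.1% and 24.4%). The protein disulfide isomerases Txndc5, Pdia4, Pdia3 and Pdia5 differed by 1.96 (SE 0.21), 1.67 (SE 0.18), 1.38 (SE 0.22) and 1.27 (SE 0.24). The prolyl 3-hydroxylase genes P3h1, P3h2 and P3h3 and Crtap, which serve collagen, differed by 1.30 (SE 0.36), 1.22 (SE 0.32), 1.96 (SE 0.26) and 1.48 (SE 0.16), beside the fibroblast sums above. The collagen prolyl 4-hydroxylase P4ha2 went the other way, at -2.18 (SE 0.19). P3h1 did not pass without embryonic replicate 2 (adjusted p = 0.093 from limma). P3h2 did not pass without any 1 of embryonic replicates 1 and 2 (adjusted p of up to 0.0616 from limma). Cdnf, a secreted ER factor, was the most reduced, with 4.80 and 4.66 in embryonic CMs and 8.69, 8.34 and 8.75 in normal ACMs and a difference of -3.86 (SE 0.20, adjusted p = 1.39e-06 from limma). The stress-induced Ddit3 (CHOP), Herpud1 and Derl2, of which the last 2 serve the disposal of misfolded ER proteins, differed by -1.63 (SE 0.31), -1.69 (SE 0.33) and -1.63 (SE 0.20). The central ER chaperone Hspa5 (BiP) and the factors Xbp1 and Atf4 did not pass, at 0.14 (SE 0.38), 0.54 (SE 0.22) and 0.15 (SE 0.27). Of 29 genes of the ER translocon, signal peptidase and glycosylation, 10 were higher and 5 lower (34.5% and 17.2%, against 28.1% and 24.4% of all genes). Sec61a1, the channel subunit, differed by 1.74 (SE 0.15). The 5 lower genes were Tram2 at -1.38 (SE 0.22), Srp54a at -0.85 (SE 0.30), Sec63 at -0.79 (SE 0.19), Srp68 at -0.57 (SE 0.17) and Srp19 at -0.54 (SE 0.20), of which all but Tram2 turned under median scaling. Sec63, Srp19, Srp54a and Srp68 each did not pass without at least 1 of the arrays (adjusted p of up to 0.0564, 0.169, 0.152 and 0.144 from limma). Without embryonic replicate 1 they were 2, and without any 1 other array but normal ACM replicate 2 they were 3.

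Some promoters of these ER genes hold the same element, and those of called genes are shown because genes with it were called in both directions. The ER stress response element, which ATF6 and XBP1 bind, was searched as CCAAT followed after 9 bases of any kind by CCACG, on both strands in the 250 bases before each gene start (RefSeq, GRCm38.p6). It was found for 10 of 53 listed ER genes with a promoter sequence (18.9%), against 0.13% of 27025 genes with one and 0.133% of 7499 genes tested here. Of the 8 that were measured, 3 rose, 1 fell and 4 did not pass, the last being Hspa5, Ero1b, Syvn1 and Pdia6. The 4 called genes were the chaperones Hsp90b1 (GRP94) and Calr (calreticulin), at 0.88 (SE 0.18) and 0.67 (SE 0.22), Creld2, at 1.26 (SE 0.16), and the co-chaperone Dnajc3, at -1.92 (SE 0.20). Among 40 measured list genes with a promoter but no match, 14 were higher and 10 lower. A match describes the letters only and is no sign of binding. The stretches around the element of the called genes follow, 5′ to 3′ on the strand of the gene, with the element in capitals.
Hsp90b1, chr10:86705493-86705694, minus strand: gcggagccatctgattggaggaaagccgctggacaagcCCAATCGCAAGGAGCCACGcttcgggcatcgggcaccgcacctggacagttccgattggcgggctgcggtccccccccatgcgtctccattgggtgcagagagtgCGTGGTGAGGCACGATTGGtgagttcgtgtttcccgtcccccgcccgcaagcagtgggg
Calr, chr8:84847035-84847133, minus strand: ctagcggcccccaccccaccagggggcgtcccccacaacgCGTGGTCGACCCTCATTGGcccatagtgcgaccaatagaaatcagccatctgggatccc
Creld2, chr15:88819480-88819578, plus strand: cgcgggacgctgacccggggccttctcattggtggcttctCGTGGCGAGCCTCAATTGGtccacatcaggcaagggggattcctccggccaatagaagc
Dnajc3, chr14:118937787-118937885, plus strand: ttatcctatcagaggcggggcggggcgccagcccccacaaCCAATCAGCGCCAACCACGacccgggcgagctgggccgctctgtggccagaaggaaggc
Hsp90b1 carried 2 copies in opposite orientations. Calr did not pass without any 1 of embryonic replicates 1 and 2 and normal ACM replicates 1 and 2 (adjusted p of up to 0.16 from limma). In Calr and Creld2 the capitals read as the reverse complement of the searched letters.

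Of 124 ubiquitin ligase genes, 31 were higher and 35 lower, near the shares of all genes, and median scaling turned the balance to 60 higher and 16 lower, with a list median of -0.04 relative to all genes. Trim72, or MG53, which helps to reseal the muscle membrane, had 6.71 and 6.12 in embryonic CMs and 11.29, 11.46 and 11.70 in normal ACMs, a difference of -5.07 (SE 0.21, adjusted p = 4.64e-07 from limma). Trim54 (MURF3), which binds microtubules and the sarcomere, had 4.73 and 5.19 in embryonic CMs and 9.80, 10.36 and 9.93 in normal ACMs, a difference of -5.07 (SE 0.29, adjusted p = 2.04e-06 from limma). Both were dim on the embryonic arrays and bright on all adult arrays, and a lack of overlap was a condition of their choice. Fbxo32 (atrogin-1) and Trim63 (MURF1), the ligases of muscle atrophy, differed by -2.94 (SE 0.27) and -2.24 (SE 0.40), and the SOCS-box genes Asb10, Asb11 and Asb12 by -3.61 (SE 0.30), -3.01 (SE 0.19) and -1.98 (SE 0.22). Fbxo40, which targets Irs1 in muscle, Klhl38 and Fbxo31 differed by -1.65 (SE 0.21), -2.32 (SE 0.30) and -3.07 (SE 0.25), and Fbxw7, which targets MYC and cyclin E, by -2.88 (SE 0.19). Among the higher genes, Trim28, a corepressor that silences retroelements, had 11.56 and 11.53 in embryonic CMs and 9.14, 9.38 and 9.14 in normal ACMs, a difference of 2.33 (SE 0.16, adjusted p = 5.24e-06 from limma). Skp2, which targets the cell cycle inhibitor p27, was at least 3.00-fold higher, and Cul7 and its substrate receptor Fbxw8 differed by 1.84 (SE 0.19) and 1.69 (SE 0.19). Nedd4 and Nedd4l differed by 1.17 (SE 0.21) and 0.95 (SE 0.18) while their relative Wwp1 differed by -1.82 (SE 0.21). Of 43 deubiquitinating enzymes 7 were higher (16.3%) and 6 lower (14%), both below the shares of all genes, with 3 lower without embryonic replicate 1 and 24 higher and 3 lower after median scaling. Among those detected on all 5 arrays 3 of 31 were higher and 5 lower. Usp46 was the most reduced, at -2.74 (SE 0.29), and Uchl1, an abundant neuronal enzyme, the most increased, at 2.69 (SE 0.29), with detection on 1 normal ACM array.

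Autophagy genes, which build the vesicles that carry cell contents to lysosomes, were lower in 21 of 43 cases and higher in 3, with a median of -0.56, but scaling to the median turned this to 14 higher and 8 lower, with a list median of -0.44 relative to all genes. Among those detected on all 5 arrays 3 of 38 were higher and 21 lower in quantile-normalized values. Pink1, the kinase that marks damaged mitochondria, had 9.63 and 9.51 in embryonic CMs and 12.08, 12.42 and 12.19 in normal ACMs, a difference of -2.66 (SE 0.19, adjusted p = 7.11e-06 from limma). Map1lc3a, a coat protein of the vesicles, had 9.26 and 9.07 in embryonic CMs and 11.71, 11.76 and 11.41 in normal ACMs, a difference of -2.46 (SE 0.19, adjusted p = 1.29e-05 from limma). The groups stood well apart in both, which were picked among genes whose groups do not overlap. Of other coat genes, Map1lc3b and Gabarapl1 differed by -1.30 (SE 0.33) and -1.31 (SE 0.34), whereas Gabarap and Gabarapl2 did not pass, at 0.04 (SE 0.20) and 0.28 (SE 0.31). The initiating kinase Ulk1 and its partner Atg13 differed by -1.12 (SE 0.24) and -2.19 (SE 0.27), the transport adaptor Fyco1 by -2.42 (SE 0.26), the lipid-binding Wipi1 by -1.90 (SE 0.21) and the cargo receptor Sqstm1 by -1.26 (SE 0.26). The higher genes were Bnip3l, which clears mitochondria from maturing red cells and other cells, at 1.6 (SE 0.17) beside the erythroid sums above, Uvrag, at 0.73 (SE 0.16), and Ambra1, at 0.70 (SE 0.19), and 5 were higher without normal ACM replicate 3. Ambra1 and Map1lc3b did not pass without embryonic replicate 1 (adjusted p = 0.0988 and 0.0815 from limma). Gabarapl1 did not pass without embryonic replicate 2 (adjusted p = 0.0687 from limma).

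Lysosome genes were higher in 16 of 57 cases and lower in 17 in quantile-normalized values. These shares, 28.1% and 29.8%, lay near those of all genes (28.1% and 24.4%). Median scaling turned the balance to 25 higher and 7 lower, with a list median of -0.13 relative to all genes. Acid sphingomyelinase, Smpd1, had 9.49 and 9.68 in embryonic CMs and 11.96, 12.09 and 12.35 in normal ACMs, a difference of -2.55 (SE 0.20, adjusted p = 1.19e-05 from limma), and Idua, which degrades glycosaminoglycans, differed by -2.59 (SE 0.19). The proteases Ctsf and Ctsb were lower, at -2.17 (SE 0.24) and -1.54 (SE 0.21), and Ctsk and Ctsz higher, at 1.71 (SE 0.37) and 1.69 (SE 0.37), Ctsz with detection on 2 normal ACM arrays. Npc2, which carries cholesterol, and progranulin, Grn, were higher, at 1.69 (SE 0.29) and 1.68 (SE 0.21). The letters GTCACGTG, an E-box of the kind bound by TFEB, contain the shorter E-box CACGTG and were searched on both strands in the same windows. They were found for 11 of 59 lysosome genes with a promoter (18.6%), against 2.11% of all genes with one and 3.81% of those tested here. Of the 10 that were measured, 2 were higher, 3 lower and 5 did not pass. Lamp1, a protein of the lysosome membrane, the protease Ctsd and the calcium channel Mcoln1 were lower, at -0.85 (SE 0.16), -0.92 (SE 0.20) and -0.97 (SE 0.19), and the galactosidase Glb1 and Igf2r, which also sorts lysosomal enzymes, were higher, at 0.98 (SE 0.23) and 2.49 (SE 0.29). Their windows are shown in the same way to set genes of either direction side by side, with each match in capitals.
Lamp1, chr8:13159093-13159160, plus strand: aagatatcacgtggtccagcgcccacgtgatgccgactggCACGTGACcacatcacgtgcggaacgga
Ctsd, chr7:142387878-142388077, minus strand: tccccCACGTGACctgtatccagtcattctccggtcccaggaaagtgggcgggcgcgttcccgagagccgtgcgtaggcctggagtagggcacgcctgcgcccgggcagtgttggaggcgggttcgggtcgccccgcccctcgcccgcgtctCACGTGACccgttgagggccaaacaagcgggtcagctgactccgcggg
Mcoln1, chr8:3500406-3500518, plus strand: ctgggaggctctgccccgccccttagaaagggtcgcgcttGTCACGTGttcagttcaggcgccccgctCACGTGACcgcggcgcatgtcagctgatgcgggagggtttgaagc
Glb1, chr9:114400988-114401075, plus strand: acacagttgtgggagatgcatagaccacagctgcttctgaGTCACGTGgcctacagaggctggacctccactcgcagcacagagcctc
Igf2r, chr17:12769707-12769796, minus strand: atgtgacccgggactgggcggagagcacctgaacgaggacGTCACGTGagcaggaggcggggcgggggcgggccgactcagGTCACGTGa
Ctsd, Mcoln1 and Igf2r each carried 2 matches. Ctsd did not pass without embryonic replicate 1 (adjusted p = 0.052 from limma). Glb1 did not pass without embryonic replicate 2 (adjusted p = 0.0507 from limma).

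**Figure D3:**
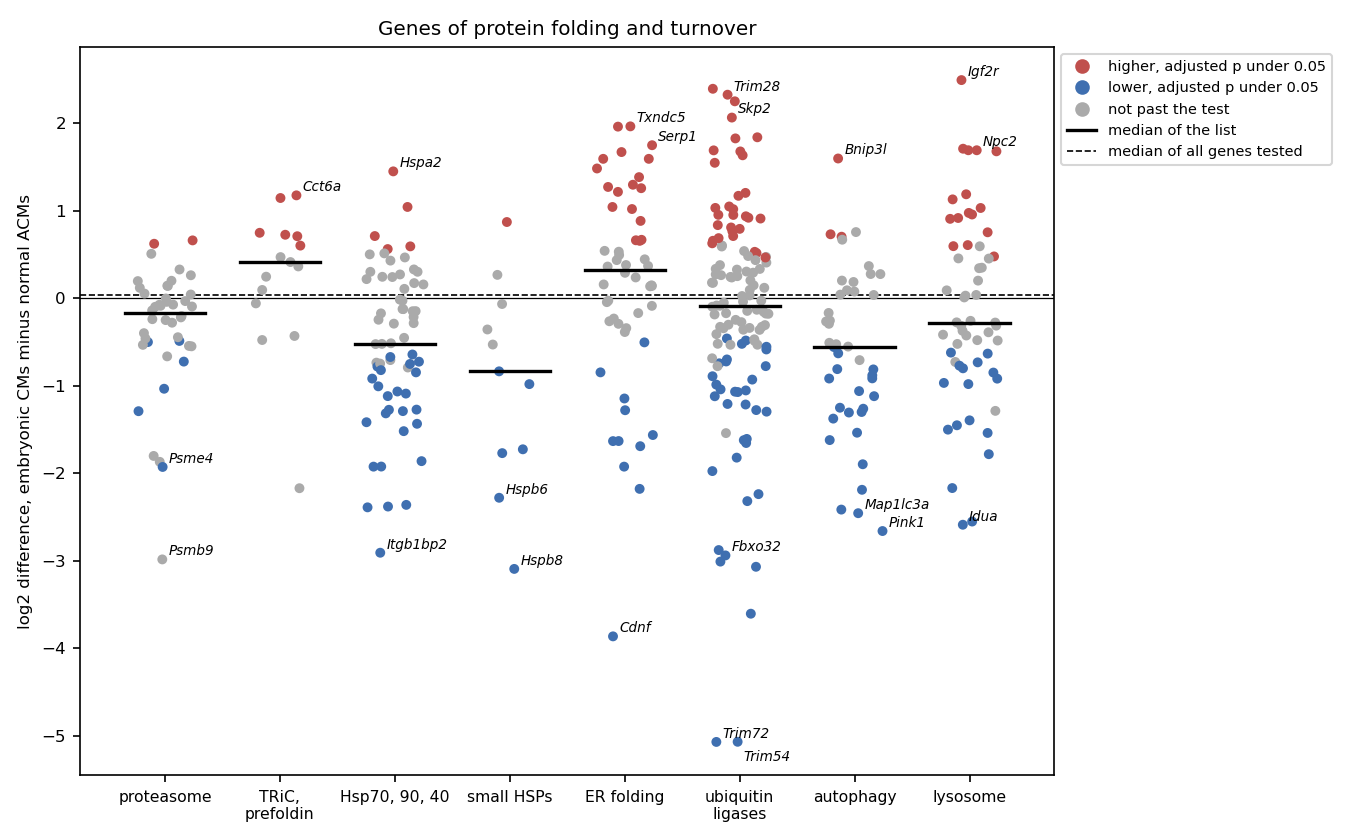
Log2 difference between embryonic CMs and normal ACMs of each measured gene (points) in 8 lists of protein folding and turnover, coloured by the call, with list medians (bars) and the median of all genes (dashed, 0.03). Ubiquitin ligases span from Trim72 at -5.07 to Klhl6 at 2.39, most proteasome genes lie near 0 and most autophagy genes below it. Median scaling turned the balance of proteasome, Hsp70, Hsp90 and Hsp40, ubiquitin ligase, autophagy and lysosome genes.

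Of 12 pairs of related genes with both members measured, 3 moved in opposite directions. Slc2a1 and Slc2a4, Fxyd5 and Fxyd1, and Pde4d and Pde4a each had 1 higher and 1 lower member. The phosphodiesterases Pde4d and Pde4a, which break down cyclic AMP, differed by 0.98 (SE 0.18) and -2.36 (SE 0.31), Pde4a with detection on 1 embryonic array. In 4 pairs 1 member passed and the other did not, namely Rxrg, at least 34.8-fold lower, beside Rxra, Hspb6 at -2.28 beside Hspb1, Camk2d at -0.63, which turned under median scaling, beside Camk2g (0.25), and Unc45a, a myosin chaperone, at 0.59 beside its muscle relative Unc45b (-0.07). Bag2 did not pass without any 1 of embryonic replicate 2, normal ACM replicates 1 and 3 and hypertrophic ACM replicate 1 (adjusted p of up to 0.193 from limma). Camk2d did not pass without any 1 of embryonic replicates 1 and 2, normal ACM replicates 1 and 3 and hypertrophic ACM replicates 1, 2 and 3 (adjusted p of up to 0.223 from limma). Unc45a did not pass without any 1 of embryonic replicate 1, normal ACM replicates 1 and 2 and hypertrophic ACM replicates 1 and 3 (adjusted p of up to 0.31 from limma). In 3 pairs both members went the same way, Trim54 and Trim63 and Bag2 (-1.86) and Bag3 lower and the sodium pump subunits Atp1b2 and Atp1b3 higher, at 1.80 (SE 0.24) and 0.73 (SE 0.16). Neither Mef2a (0.28) nor Mef2c passed, nor did Fgf12 (-0.46) or Fgf13 (-0.42). The difference between the members of a pair was not tested.

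**Figure D4:**
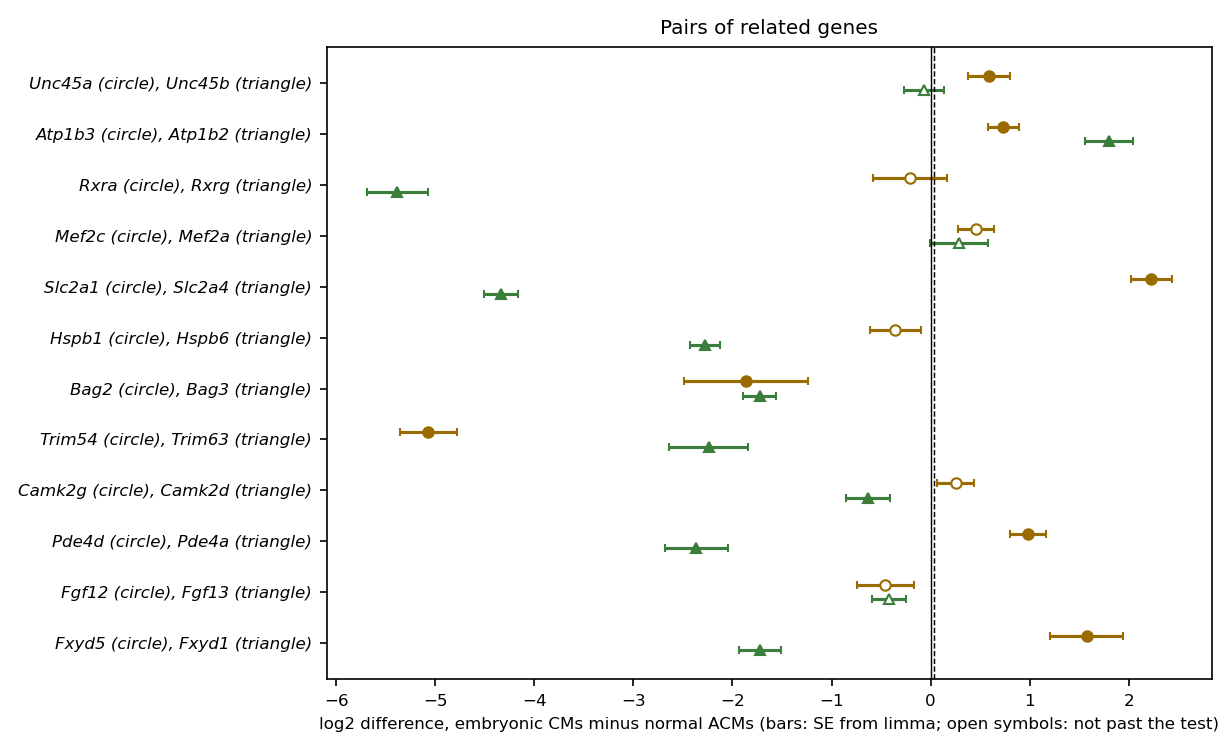
Log2 difference between embryonic CMs and normal ACMs, with its SE, for both members of 12 pairs of related genes, with open symbols for genes not past the test. Members of a pair are read by different probes, so their differences and not their levels are set side by side, and Slc2a1 and Slc2a4, Fxyd5 and Fxyd1, and Pde4d and Pde4a lie on opposite sides of 0. Rxrg, detected on no embryonic array, is drawn at its fitted difference, for which the text gives a bound.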

How the data were processed

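RNA of embryonic CMs (2 arrays), normal ACMs (3) and hypertrophic ACMs (3) was read on Illumina MouseRef-8 v2.0 arrays of 25697 probes, and groups and replicate numbers come from the labels. The deposited table holds, per array, a non-normalized intensity for each probe and a detection p-value made by the authors with GenomeStudio (version 2011 in the submitters' processing notes), whose settings are not given in the sources used here. A second table holds the authors' normalized intensity values and was used as an alternative. Of the probes, 23978 had 1 gene symbol in the platform annotation and 1719 none, and 23962 matched RefSeq by Entrez identifier with no symbol updated. Intensities of all 8 arrays were background-corrected, quantile-normalized and put on the log2 scale from the deposited intensities with neqc of limma 3.58.1 (R 4.3.3, offset 16). A probe was kept where 2 or more of the 5 arrays compared gave it a detection p-value under 0.05 (13453 probes, of which 12677 had a gene), and the brightest kept probe stood for a gene. Of 2453 genes with more than 1 kept probe, 12 called genes had another called the other way. Group means of the 8 arrays were fitted with lmFit and eBayes (5 residual degrees of freedom), with Benjamini-Hochberg adjustment over 9254 genes, and the fit was tested on simulated data. The chip of each array is not given in the sources used here and could not be fitted as a block.

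The members and the gene lists were chosen with earlier results of these data known. The lists share some members with each other and with the marker lists. Genes named were drawn from those with the smallest p of each list and direction and those with the largest differences outside the classes not described. Both were picked among genes whose groups did not overlap. Others were members of counts of 5 or fewer, members of the pairs of related genes and, chosen after their values were seen, further list members of known role. Not every gene picked by these rules is named. Alternatives were the background correction, offset, normalization, arrays, filter, choice of probe, variance model, thresholds, a replicate block and leaving out each array. Promoter sequences came from RefSeq (GRCm38.p6) and were searched with Python 3.11.15 (pandas 2.3.3). Figures were drawn with matplotlib 3.10.9.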

Additional observations from a re-analysis of the deposited data

How the results depend on the processing

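The counts of 2602 higher and 2262 lower genes became 4578 and 1106 with median scaling in place of quantile normalization. With a test against a difference of 1 (treat) they were 783 and 564, and with detection required on all 5 arrays, which leaves fewer genes, 1722 were higher (45.3% of calls, against 53.5%). All other settings stayed within 1.5 times, from 1901 to 2831 higher and from 1588 to 2409 lower. Without 1 array, 1991 (without embryonic replicate 1) to 2672 (without normal ACM replicate 2) were higher and 1648 to 2322 lower. Deviations of arrays with the same replicate number correlated by -0.0713 to 0.136. With so few arrays this cannot show whether they shared a litter, day or chip. A replicate block gave 2402 higher and 2091 lower genes. Under median scaling the differences of Camk2d (0.30), Dvl1 (0.26), Sec63 (0.092), Slc38a7 (0.33), Srp19 (0.42), Srp54a (0.11), Srp68 (0.29) and Tgfb1 (0.20) turned to higher, and none of them passed there, whereas Akt1s1, which did not pass, turned to 0.64 and passed. Of the values of named genes under other settings, 5052 kept direction and side of the threshold, 302 no longer passed, 49 newly passed and 9 turned, and without 1 array these were 2609, 127, 16 and 0. The cause of these changes was not tested, except that fewer genes or arrays enter some settings. Precision is limited by 2 arrays in the embryonic group, and genes detected on no array of a group have only bounds. These bounds hold for the arrays used and moved when 1 was left out. That of Slc4a1, 6.23-fold, was 4.33-fold without embryonic replicate 2 and 8.97-fold without embryonic replicate 1.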
